A study of Mus musculus with 9 samples.

Results

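The circadian clock genes Per1, Per2, Per3, Cry1, Cry2, Clock, Npas2, Nr1d1, Nr1d2 and Dbp were measured in nuclear RNA from hippocampal pyramidal cells of the mouse, the principal excitatory neurons of the hippocampus. These 10 genes were taken by symbol from 31051 gene symbols. Imaging in navigating mice had sorted the cells into place cells, active at particular spots of the environment, and silent cells, and light was then used to mark their nuclei for collection. There were 5 place and 4 silent libraries, all of genotype WT and from hippocampus. The labels used here name no strain, age, treatment or hour of collection, so neither group can be placed within the day. All titles begin with the word Mouse and a shared first number and go on with a library number. They do not say whether the libraries came from separate animals. The p-values therefore measure the spread between these libraries, which may in part be technical.

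The mammalian clock is a feedback loop of transcription that runs in most cells, neurons of the hippocampus included. CLOCK, or its relative NPAS2, pairs with BMAL1 and binds E-boxes to activate the Per and Cry genes, whose proteins return to the nucleus and inhibit their own activators. The same activators drive Nr1d1 and Nr1d2, which encode the nuclear receptors REV-ERB alpha and beta, repressors of Bmal1, and Dbp, a transcription factor that binds D-boxes in output genes. In a tissue sampled around the day, Nr1d1, Dbp and the Per genes peak at times well apart from Bmal1, and Cry1 peaks after Per1 and Per2.

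Levels are given as RPM, reads per 1000000 of each library's scaled depth. Depth, in units of 1000000 recovered reads, ran from 14.0 to 22.3. Summed over 5 pyramidal and excitatory markers (Camk2a, Slc17a7, Gria1, Neurod6 and Wfs1), levels were 2783 to 4012 RPM in place and 3172 to 4179 in silent libraries, so these markers were abundant in every library. Markers of other cell types were detected too. The sum over 10 oligodendrocyte markers ran from 198 to 3427 RPM in place and 118 to 588 in silent libraries, and that over 6 astrocyte markers reached 2293 RPM in place replicate 3 and 166.9 to 469 elsewhere. The sum over 7 interneuron markers was 41230 RPM in silent replicate 3, nearly all of it Vip, and 26.8 to 727 elsewhere. Microglial markers summed to 5.58 to 184 RPM over the 9 libraries, and the 4 vascular markers to at most 3.52. Markers of other parts of the hippocampus varied as well. The 3 dentate granule cell markers summed to 4.02 to 189 RPM, highest in place replicate 3. The 3 markers of field CA2 summed to 2.07 to 118.5, highest in silent replicate 4, and the 4 of field CA3 to 10.8 to 68.5. The number of genes detected was lowest in silent replicate 1 (14174) and highest in place replicate 2 (20987). Its mean was 18600 ± 1936 (SD) over the 5 place libraries and 16089 ± 1606 (SD) over the 4 silent ones (exact permutation test over 126 splits, two-sided, p = 0.0952). The part of these differences in the clock gene values was not tested, except that the number of genes detected was entered in an alternative fit. Eif2s3y, a Y-linked gene, had 349 RPM or more in place replicate 1 and in all 4 silent libraries, and no reads in place replicates 2 to 5. The labels used here name no sex, and since only place replicate 1 among the place libraries had this transcript, sex and group can hardly be told apart in any of the differences that follow. With Eif2s3y high in some libraries and without reads in others, a single animal is an unlikely source of all 9. In pooled nuclei, fewer nuclei of a type and less RNA per nucleus cannot be told apart.

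The DNA elements through which the loop acts were looked up in RefSeq promoter windows of 300 bases, from 250 before to 50 after each gene's start (build GRCm38.p6). A window was at hand for 9 of the 10 genes, 12 windows in all. The E-box CACGTG was found in the windows of Per1 and Cry1, and in 7.15% of all 32851 promoter windows. The variant CACGTT, or AACGTG on the other strand, was found in Cry1, Cry2 and Nr1d1, and in 4.68% of all windows. The D-box TTANGTAA was found only in Per3, where it occurs 2 times, and in 2.32% of all windows. The ROR and REV-ERB response element (0.606% of all windows) and the cAMP response element TGACGTCA (1.79%) were not found in the windows of these genes. All motifs were searched on both strands, and none of the matches overlap each other. The windows of Cry1 and Nr1d1, 2 of the 3 genes that varied most from library to library, and of Per1 and Per3, which varied little, are given here for the 250 bases before the start, 5′ to 3′ on the gene's strand, with the matched motifs in capitals. The positions are chr10:85185055-85185304 (minus strand) for Cry1, chr11:98775378-98775627 (minus) for Nr1d1, chr11:69098699-69098948 (plus) for the first of the Per1 windows and chr4:151044666-151044915 (minus) for Per3.
Cry1: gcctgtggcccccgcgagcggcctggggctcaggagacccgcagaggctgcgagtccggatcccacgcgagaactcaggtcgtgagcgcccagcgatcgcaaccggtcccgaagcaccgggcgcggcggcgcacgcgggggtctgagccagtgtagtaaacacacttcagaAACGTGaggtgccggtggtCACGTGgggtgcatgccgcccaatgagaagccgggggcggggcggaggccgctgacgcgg
Nr1d1: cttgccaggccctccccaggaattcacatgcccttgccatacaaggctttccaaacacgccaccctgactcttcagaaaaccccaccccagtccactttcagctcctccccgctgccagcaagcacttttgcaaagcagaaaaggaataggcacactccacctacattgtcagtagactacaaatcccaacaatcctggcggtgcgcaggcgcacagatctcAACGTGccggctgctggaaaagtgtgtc
Per1: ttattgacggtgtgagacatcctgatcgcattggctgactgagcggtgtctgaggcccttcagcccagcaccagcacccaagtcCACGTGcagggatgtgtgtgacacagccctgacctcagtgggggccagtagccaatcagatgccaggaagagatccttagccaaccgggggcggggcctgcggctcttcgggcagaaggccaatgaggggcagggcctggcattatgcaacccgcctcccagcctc
Per3: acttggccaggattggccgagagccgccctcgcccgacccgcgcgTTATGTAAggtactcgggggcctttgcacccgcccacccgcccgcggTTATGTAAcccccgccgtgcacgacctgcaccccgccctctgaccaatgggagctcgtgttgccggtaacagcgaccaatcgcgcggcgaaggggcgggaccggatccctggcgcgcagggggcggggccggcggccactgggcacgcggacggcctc
In Cry1 the variant box begins 79 bases and the E-box 60 bases before the start, and in Nr1d1 the variant box begins 28 bases before it. In Per1 the E-box begins 166 bases before the start. A match of letters in a window is not a measured binding site.

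All 10 clock genes had reads in all 9 libraries and passed the filter on low values. None differed between place and silent libraries past the threshold. With limma, 0 of 10 had an adjusted p under 0.05, as did 0 of the 15227 genes tested (0.0%), and voom also called 0 of the 10. At an unadjusted p under 0.05 there was 1 of the 10, Cry1 with the higher level in place libraries, while 5.06% of all genes tested had such a p in either direction and 3.75% with the higher level in place. The log2 fold was positive in 8 genes and negative in 2 (Per2 and Dbp), with a median of 0.35. Over all genes tested the median was 0.19, with 8938 positive and 6289 negative folds. Over the 8837 of them with reads in every library, as all 10 clock genes had, it was 0.016, with 4507 positive and 4330 negative. Of these 8837, 118 had a limma unadjusted p under 0.05 with the higher level in place and 157 with the lower. The place and silent ranges overlapped for all 10, and they did not overlap for 1.88% of the genes tested (1.29% with the higher and 0.591% with the lower level in place).

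**Figure D1:**
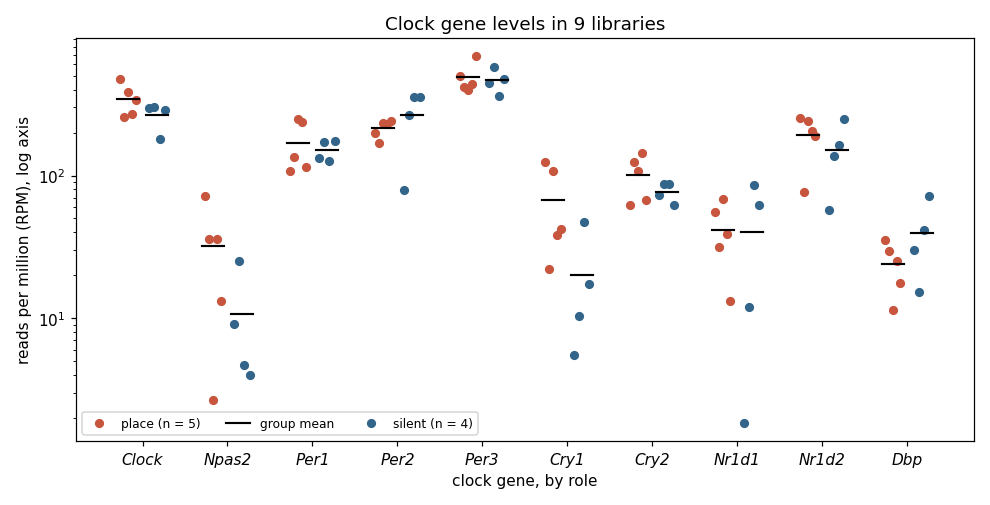
Level of each clock gene in each library, in RPM on a log axis, with place libraries (n = 5) in red, silent libraries (n = 4) in blue and a black line at each group mean. Per3 and Clock lie highest with narrow spreads, Nr1d1 reaches down to 1.86 RPM in silent replicate 1, and the groups overlap for every gene.

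Corrected for exon length (RPM per kilobase of merged exons, GENCODE M21), Per3 stood highest at 49.7 ± 10.4 (SD, n = 9), followed by Per2 at 40.4 ± 14.9, Nr1d2 at 32.3 ± 13.4, Per1 at 28.6 ± 9.17 and Clock at 22.6 ± 5.99. Cry2 at 14.3 ± 4.63, Cry1 at 13.8 ± 12.7, Nr1d1 at 13.3 ± 9.38 and Dbp at 10.3 ± 6.04 formed a lower set, and Npas2 was last at 4.71 ± 4.76. Neighbours in this order were hard to tell apart. Each gene was above the next one in 4 to 7 of the 9 libraries, and the steps from Nr1d2 to Per1, from Cry2 to Cry1, from Cry1 to Nr1d1 and from Nr1d1 to Dbp held in no more than 5.

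The genes also differed in their spread from library to library. Per3 had the lowest coefficient of variation of its RPM over the 9 libraries, 20.9%, followed by Clock (26.5%), Per1 (32.1%), Cry2 (32.3%), Per2 (36.8%) and Nr1d2 (41.5%). Dbp reached 58.6%, Nr1d1 70.3%, Cry1 92.0% and Npas2 101%. The highest library exceeded the lowest 1.91-fold for Per3, 22.7-fold for Cry1, 26.8-fold for Npas2 and 46.2-fold for Nr1d1. The median SD of the log2 values was 0.71 for the 10 genes and 0.77 for the 8837 tested genes with reads in every library.

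Among the activators, Clock, which encodes a histone acetyltransferase and DNA-binding partner of BMAL1, was the more abundant and the steadier. It stood at 473, 258, 383, 271 and 338 RPM in place replicates 1 to 5 and at 297, 300, 181 and 288 in silent replicates 1 to 4. Place replicate 1 was highest and silent replicate 3 lowest, and the remaining silent libraries lay within the place range. The group means were 345 ± 87.7 (SD, n = 5) and 266 ± 57.0 (SD, n = 4), a log2 fold of 0.36 ± 0.25 (SE) with a 95% interval from -0.18 to 0.90 (limma adjusted p = 0.864). It was 0.24 without place replicate 1 and 0.19 without silent replicate 3.

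Npas2, which can stand in for Clock in the forebrain, was low and uneven. It stood at 72.3, 35.9, 2.70, 36.0 and 13.2 RPM in the place libraries and at 9.08, 25.2, 4.68 and 4.01 in the silent ones. Both the highest and the lowest library were place libraries, replicates 1 and 3. The means of 32.0 ± 26.8 and 10.7 ± 9.88 gave a log2 fold of 1.32 ± 1.20 (limma adjusted p = 0.864), and the 95% interval from -1.29 to 3.92 spans a change in either direction. The fold was 0.86 without place replicate 1 and 2.04 without place replicate 3.

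Of the Period genes, which encode the PAS-domain repressors of the loop, Per1 is also an immediate target of cAMP and glucocorticoid signalling. Per1 stood at 107.5, 135, 247, 238 and 115 RPM in place replicates 1 to 5 and at 133, 172, 126 and 174 in silent replicates 1 to 4. Place replicates 3 and 4 were well above the rest, the silent libraries were close together, and the lowest was place replicate 1. The log2 fold was 0.08 ± 0.32 with a 95% interval from -0.62 to 0.78 (limma adjusted p = 0.980). It was -0.09 without place replicate 3 and -0.07 without place replicate 4.

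The place libraries high in Per1 were unlike in their activity and hormone response genes. The summed level of 8 activity-response genes (Fos, Fosb, Junb, Arc, Npas4, Egr1, Nr4a1 and Dusp1) was 1023 RPM in place replicate 4, the highest of the place libraries, and 166 in place replicate 3, the lowest. The summed level of 8 glucocorticoid-response genes (Fkbp5, Sgk1, Tsc22d3, Zbtb16, Nfkbia, Errfi1, Sult1a1 and Mt2) was 1035 RPM in place replicate 3 and 320 in place replicate 4. Sgk1 (375 RPM), Mt2 (342), Tsc22d3 (108) and Nfkbia (62.8) were highest of all libraries in place replicate 3. Fkbp5, Zbtb16, Errfi1 and Sult1a1 were not, and Errfi1, at 18.5, was lowest there among place libraries. Place replicate 3 also had the highest astrocyte and oligodendrocyte marker sums. Silent replicate 3 had the highest activity sum of all, 1134 RPM, and the lowest Per1 of the silent libraries. Of these lists, 0 of the 7 activity genes tested and 0 of the 8 glucocorticoid genes passed the threshold between place and silent libraries. At an unadjusted p under 0.05 there were 0 and 1 (Tsc22d3, with the higher level in place). Tsc22d3 had reads in all 5 place but only 2 silent libraries, so it reached the filter, set at 4 libraries, only through place libraries.

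Per2, a Period gene whose loss shortens the behavioural rhythm in mice, stood at 199.5, 168, 234, 228 and 242 RPM in place and at 78.7, 267, 356 and 356 in silent libraries. The place libraries kept to a narrow range, while the silent group held both the highest libraries (replicates 3 and 4) and the lowest (replicate 1). The means were 214 ± 30.3 and 264 ± 131, and the log2 fold was -0.10 ± 0.40 (95% interval -0.97 to 0.77, limma adjusted p = 0.979). Without silent replicate 1 it was -0.61, and without silent replicate 3 it was 0.12.

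Per3, the Period gene that mice can lose with little effect on rhythm, was the most abundant and the steadiest. It stood at 499, 420, 394, 441 and 685 RPM in place and at 447, 575, 360 and 473 in silent libraries. Place replicate 5 was highest and silent replicate 3 lowest, and the groups were interleaved. The log2 fold of 0.06 ± 0.21 had a 95% interval from -0.40 to 0.53 (limma adjusted p = 0.969).

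Of the cryptochromes, the proteins that bind CLOCK and BMAL1 to repress them, Cry1 had the smallest p of the 10 genes. Cry1 stood at 125, 22.1, 108, 38.1 and 42.1 RPM in place replicates 1 to 5 and at 5.51, 10.3, 47.6 and 17.3 in silent replicates 1 to 4. Place replicates 1 and 3 were far above all others, 3 silent libraries lay below every place library, and silent replicate 3 lay above 3 of the 5 place libraries. The means of 67.1 ± 46.1 (SD, n = 5) and 20.2 ± 18.9 (SD, n = 4) differ 3.32-fold, and the log2 fold was 1.89 ± 0.79 (SE; 95% interval 0.17 to 3.60, limma unadjusted p = 0.0335). Adjusted over all genes tested, p was 0.864. The fold stayed positive in all 21 alternatives tried, between 1.05 and 2.45, with an adjusted p never under 0.687. In the lowest library, silent replicate 1, the level rests on 77 reads, so the counting error of reads is small beside the spread between libraries. Loss of transcripts before sequencing is not part of that error and was not tested.

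Cry2 did not share this layout. It stood at 62.3, 125, 107, 145 and 67.8 RPM in place and at 73.1, 87.5, 86.7 and 61.7 in silent libraries. Place libraries made up both the 3 highest and, apart from silent replicate 4, the lowest values, and the silent libraries lay between. The log2 fold was 0.33 ± 0.36 (95% interval -0.45 to 1.11, limma adjusted p = 0.873), and 0.18 without place replicate 4. Cry2 shares exonic bases with D930015M05Rik on the opposite strand, which was at most 0.778 RPM.

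The REV-ERB genes differed in abundance and in spread. Nr1d1 stood at 55.8, 31.4, 68.5, 39.0 and 13.3 RPM in place and at 1.86, 12.0, 85.9 and 61.8 in silent libraries. Silent replicate 3 was the highest of all libraries and silent replicates 1 and 2 the lowest, with 26 reads in silent replicate 1, so the place libraries lay between. The means were nearly equal at 41.6 ± 21.4 and 40.4 ± 40.1, and the log2 fold of 0.96 ± 0.99 (95% interval -1.18 to 3.11, limma adjusted p = 0.867) rested on silent replicate 1, without which it was -0.14. It was 1.70 without silent replicate 3 and 1.54 without silent replicate 4. Nr1d1 overlaps Thra, a thyroid hormone receptor gene on the opposite strand at 110 to 219 RPM, and the strand setting of the counting is not given in the sources used here, so reads of the pair may be mixed.

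Nr1d2, the more abundant per length, stood at 253, 76.9, 239, 205 and 189 RPM in place and at 57.0, 138, 163 and 249 in silent libraries. Silent replicate 1 and place replicate 2 were low, and the other libraries lay between 138 and 253. The means of 193 ± 69.6 and 152 ± 79.2 gave a log2 fold of 0.42 ± 0.46 (95% interval -0.58 to 1.41, limma adjusted p = 0.875), and 0.006 without silent replicate 1. It was 0.72 without place replicate 2 and likewise without silent replicate 4.

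Dbp, the output gene, had the larger of the negative folds. It stood at 35.6, 29.4, 11.4, 25.3 and 17.6 RPM in place and at 30.2, 15.2, 41.9 and 71.3 in silent libraries. Silent replicates 4 and 3 were highest, place replicate 3 was lowest, and silent replicate 2 lay below 4 of the 5 place libraries. The means of 23.8 ± 9.56 and 39.6 ± 23.8 gave a log2 fold of -0.63 ± 0.55 (95% interval -1.83 to 0.58, limma adjusted p = 0.864). It was -0.28 without silent replicate 4, -0.39 without place replicate 3 and -1.02 without silent replicate 2. Dbp overlaps Sphk2 on the opposite strand, which averaged 16.2 ± 13.5 RPM (SD, n = 9), so its level carries the same doubt as that of Nr1d1.

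**Figure D2:**
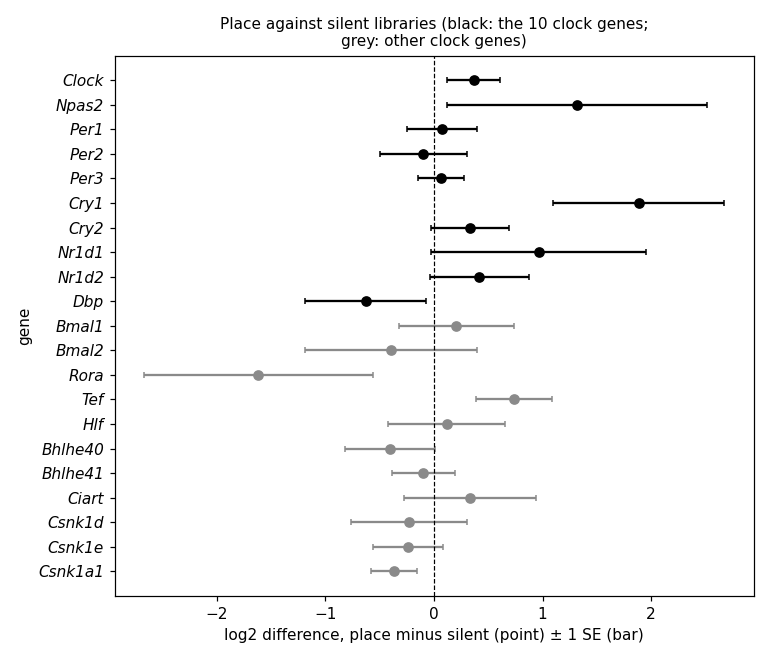
Log2 difference between place and silent libraries (points, place minus silent) with ± 1 SE (bars), for the 10 clock genes in black and some of the other clock genes in grey. Among those not drawn are Nfil3 and Rorb, with larger log2 folds of 6.07 and 4.66. Cry1 at 1.89 is the black point farthest from the dashed line at 0, and none of the points passed the adjusted threshold.

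Other genes of the clock were counted from a list, of which 32 passed the filter on low values. With limma 0 of the 32 passed the threshold in either direction. At an unadjusted p under 0.05 were 2, Nfil3 and Rorb, both with the higher level in place, beside the 3.75% of all genes tested given above. Both had reads in all 5 place libraries, but Nfil3 in only 1 and Rorb in only 2 silent ones. They could thus reach the filter, set at 4 libraries, only through place libraries, and their p-values are given as description. The fold was positive in 20 and negative in 12 (62.5% positive, beside 58.7% of all genes tested), with a median of 0.24. Bmal1, the partner of CLOCK and NPAS2, stood at 50.2, 75.1, 57.8, 57.7 and 177 RPM in place and at 67.3, 88.1, 25.9 and 110 in silent libraries, highest in place replicate 5 and lowest in silent replicate 3. Its log2 fold was 0.21 ± 0.53 (limma adjusted p = 0.960). Bmal2, its paralog, averaged 45.7 ± 33.8 RPM in place and 43.6 ± 21.0 in silent libraries.

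Nfil3, a repressor at the D-boxes that DBP activates, had the smallest p of the list. It stood at 29.2, 6.67, 10.5, 4.16 and 6.23 RPM in place libraries, at 7.45 in silent replicate 2, and had no reads in silent replicates 1, 3 and 4. The count of 0 allows up to 0.215 RPM in silent replicate 1, 0.182 in silent replicate 3 and 0.132 in silent replicate 4 (3 reads, counting error only). The groups overlapped through silent replicate 2. The unadjusted p was 0.0133 and the limma adjusted p = 0.864, and the fitted fold depends on the pseudocount, at 6.07 in log2 with 1 and 4.34 with 5. Rorb, an activator at ROR elements, was the other, and was above 3 reads only in place replicates 3 (3.47 RPM) and 4 (3.38). It was the 1 gene of the list whose groups did not overlap, beside 1.29% of all genes tested that did not with the higher level in place, and its levels outside those libraries rest on at most 3 reads.

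Rora, which encodes another activator at ROR elements, stood at 1.07, 21.5, 71.3, 12.7 and 15.9 RPM in place and at 38.3, 11.1, 51.8 and 107 in silent libraries. Its log2 fold was -1.62 ± 1.05 (limma adjusted p = 0.864), and -0.73 without place replicate 1, the library lowest in it. Of the PAR bZIP genes, the family of Dbp, Tef had means of 204.5 ± 53.9 RPM over place and 131.5 ± 65.9 over silent libraries, with a log2 fold of 0.73 ± 0.35 (limma adjusted p = 0.864) that was 0.49 without silent replicate 4, and Hlf of 104 ± 90.7 and 83.6 ± 38.8. Tef thus had a positive and Dbp a negative fold, and neither passed the threshold.

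The remaining repressors and kinases did not pass the threshold either. The E-box repressors Bhlhe40 and Bhlhe41 averaged 113 ± 57.4 and 163 ± 29.7 RPM in place and 141 ± 46.7 and 181 ± 60.4 in silent libraries. Ciart, a further repressor of CLOCK and BMAL1, averaged 42.2 ± 10.3 and 40.3 ± 24.3. Of the casein kinases that phosphorylate PER proteins, Csnk1a1 averaged 545 ± 88.3 and 715 ± 201 (log2 fold -0.37 ± 0.21, limma adjusted p = 0.864). The fold was -0.21 without silent replicate 1, the library highest in it. Csnk1d averaged 61.6 ± 25.1 and 69.4 ± 26.1, and Csnk1e 85.8 ± 11.6 and 106 ± 43.0.

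Across libraries, no common rise and fall of the 10 genes was seen. Silent replicate 1 was lowest for 4 of them (Per2, Cry1, Nr1d1 and Nr1d2) and below the median of the 9 libraries for 7, and its summed level, 1131 RPM, was the lowest. Place replicate 1 was highest for 4 (Cry1, Clock, Npas2 and Nr1d2), at a summed 1883 RPM, and lowest for Per1. Silent replicate 4 was highest for Dbp and high for Per2, Nr1d1 and Nr1d2. Silent replicate 3 was highest for Per2 and Nr1d1 and lowest for Clock and Per3, and it was also the library lowest in Bmal1.

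**Figure D3:**
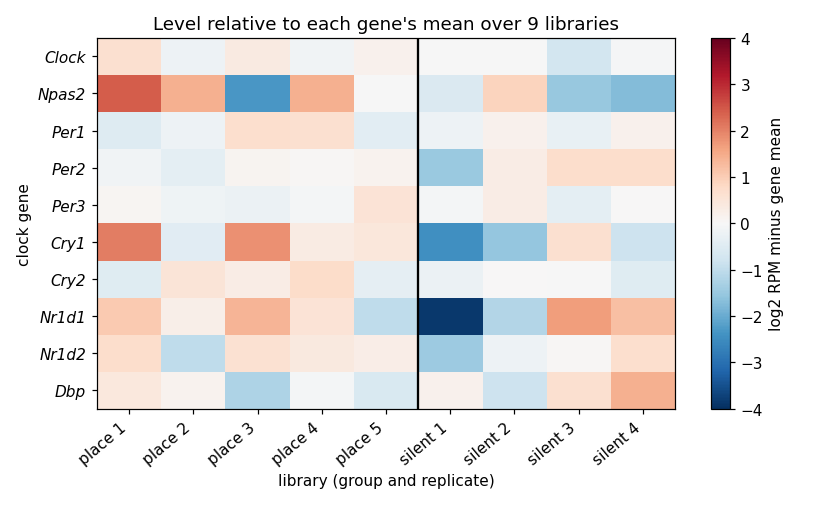
Heat map of each clock gene (rows, by role) in each library (columns, place then silent), as log2 RPM minus the gene's mean over the 9 libraries. Silent replicate 1 is dark blue for Nr1d1 and blue for Cry1, Per2 and Nr1d2, and the rows of Clock, Per1, Per3 and Cry2 are pale throughout.

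Pairs of clock genes were compared by the correlation of their log2 values over the 9 libraries. Of 45 pairs, 0 passed an adjusted p of 0.05 by Pearson's r (smallest adjusted p = 0.262, exact permutation test, two-sided) or by Spearman's rho (smallest adjusted p = 0.807). The r ran from -0.45 for Per3 and Cry2 to 0.78 for Per2 and Nr1d1, with a median of 0.045, 25 positive and 20 negative. With values as deposited, which are not scaled for library depth, 35 were positive and 10 negative, with a median of 0.24.

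At an unadjusted p under 0.05 there were 5 pairs by r and 0 by rho, and all 5 joined Per2 or Cry1 with a REV-ERB gene or the REV-ERB genes with each other. How often pairs of other genes reach such a p in these libraries was not tested, so the count is given as description. Per2 and Nr1d1 had r = 0.775 (exact permutation p = 0.0291, adjusted p = 0.262) and rho = 0.517 (p = 0.162, adjusted p = 0.807). Cry1 and Nr1d1 had r = 0.748 (exact permutation p = 0.0169, adjusted p = 0.262) and rho = 0.683 (p = 0.0503, adjusted p = 0.807). Without the pair of libraries farthest from the median of the first gene, r over the remaining 7 was 0.025 and 0.245, and without silent replicate 1 alone it was 0.269 and 0.531. Leaving out the farthest libraries narrows the range of the first gene, which by itself lowers r.

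The other 3 pairs also had a lower r without silent replicate 1. Per2 and Nr1d2 had r = 0.749 and rho = 0.283 (exact permutation p = 0.0202 and 0.463, adjusted p = 0.262 and 0.947). Cry1 and Nr1d2 had r = 0.725 and rho = 0.65 (exact permutation p = 0.0274 and 0.0666, adjusted p = 0.262 and 0.807), and Nr1d1 and Nr1d2 had r = 0.738 and rho = 0.617 (exact permutation p = 0.0277 and 0.0857, adjusted p = 0.262 and 0.807). Without the 2 farthest libraries r was 0.536, 0.463 and 0.295, and without silent replicate 1 it was 0.396, 0.513 and 0.384. With each group's mean taken off, r over the 5 pairs was 0.715 to 0.836. Without the 2 farthest libraries the exact permutation p of the 5 pairs was between 0.229 and 0.957 (unadjusted).

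None of the 14 pairs of an activator (Clock or Npas2) with a Per, Cry or REV-ERB gene passed the threshold (smallest adjusted p = 0.948, exact permutation test, unadjusted p = 0.221). Their r was positive in 6 and negative in 8, from -0.335 for Clock and Cry2 to 0.449 for Clock and Per3. With group means taken off it was positive in 4 and negative in 10, again lowest for Clock and Cry2, at -0.665. Per3 and Nr1d1, at r = -0.397 over all libraries (exact permutation p = 0.285, adjusted p = 0.948), ran from -0.831 without silent replicate 1 to -0.268 without silent replicate 3. Bmal1, whose pairs were added after its values were seen, had r = -0.381 with Nr1d1, its repressor (exact permutation p = 0.299, adjusted p = 0.922 over 10 pairs). Its closest relation was with Per3, at r = 0.814 and rho = 0.633 (exact permutation p = 0.00911 and 0.0760, adjusted p = 0.0911 and 0.539), and r was 0.343 without place replicate 5 and silent replicate 3.

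**Figure D4:**
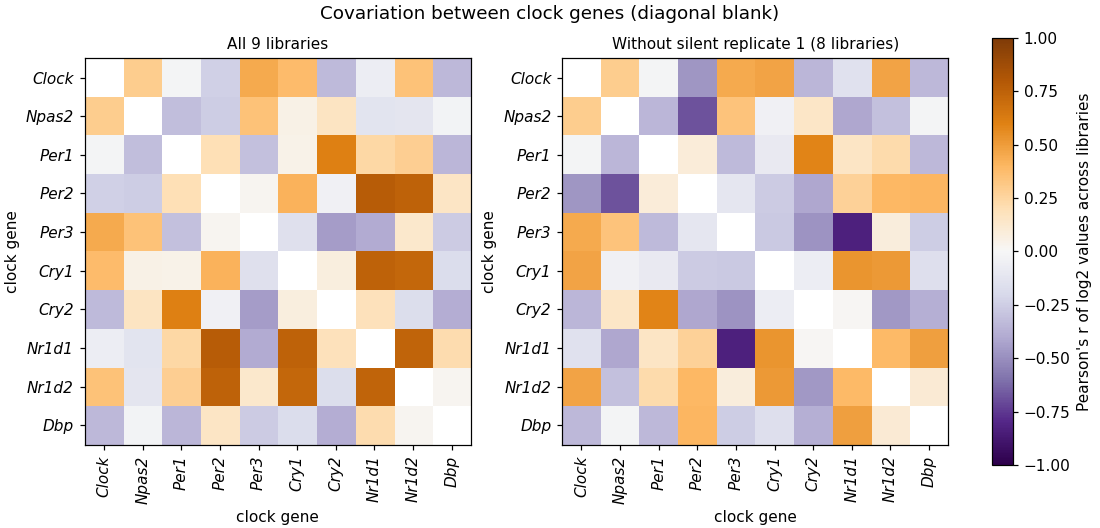
Pearson's r of log2 values for each pair of clock genes, over all 9 libraries (left) and without silent replicate 1 (right), from -1 (purple) to 1 (orange), with a blank diagonal. The pairs of Per2 or Cry1 with Nr1d1 or Nr1d2, and of Nr1d1 with Nr1d2, are dark orange on the left, up to 0.775, and paler on the right. Per2 and Cry1 were not such a pair, with r = 0.415 on the left and -0.263 on the right. In the right panel 20 of the 45 pairs are positive and 25 negative.

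The genes whose levels ran most like those of each clock gene were other than clock genes. Among 7861 other tested genes with reads in all 9 libraries, predicted gene models left out, Per2 was closest to Larp7 (r = 0.959) and Opa1 (0.949), Nr1d1 to Nudt9 (0.966) and Specc1l (0.960), Nr1d2 to Sesn1 (0.952) and Arfip2 (0.941), and Cry1 to Trappc3 (0.945) and Rpl13 (0.919). Per1 was closest to Clk2 (0.906) and Gnas (0.864), Per3 to Slc9a8 and Ergic2 (both 0.903), Cry2 to Lrfn2 (0.896) and Hipk2 (0.881), and Dbp to Abce1 (0.921) and Rtf2 (0.907). Clock was closest to Fam133b (0.942) and Scnm1 (0.924), and Npas2 to Habp4 (0.951) and Cep20 (0.932). The nearest clock gene ranked between 130 for Nr1d1 beside Cry1 and 2363 for Nr1d1 beside Dbp. These r describe 9 libraries that share their depth scaling, and with so many genes searched they carry no p.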

How the data were processed

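RNA from nuclei was made into libraries with the SMART-Seq mRNA LP kit, per the labels' protocols. STAR, HTSeq and the build GRCm39 are named in the submitters' processing notes. No source used here states the annotation, the strand setting or the normalization. Per gene and library, the deposited values are a normalized read signal. In 8893 of the 8894 genes above 0 in all libraries, the signal was a whole multiple of 1 number per gene (within 0.05), which for 99.8% matched a TMM factor per gene, so libraries carried no scaling of their own. Whole reads were recovered by division. A single column that names no gene and held 0.166% to 0.310% of reads, was left out.

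Libraries were scaled by TMM factors across libraries, and genes reaching a scaled value of 10 in 4 or more libraries were fitted with limma 3.58.1 (R 4.3.3, trend) on log2(value + 1), place minus silent, over all 9 libraries. Benjamini-Hochberg adjustment covered 15227 genes, at a threshold of 0.05. The log2 folds of genes without reads in some libraries depend on the pseudocount and can exceed the ratio of group means. For Nfil3 the means differed 6.10-fold, while the fitted log2 fold was 6.07, and 2.55 on log2(RPM + 1). Intervals are limma's, at 95%. Pairs of genes were tested by exact permutation over 362880 pairings. The 10 clock genes and all lists were chosen with earlier results of these data known. Named genes are the 10 clock genes, fixed members of the other lists, and the 2 genes closest in level to each clock gene, and a few list members are not reported here. Alternatives covered scaling, pseudocount, filter, voom, array weights, genes detected and libraries left out. Sequences are from RefSeq (GRCm38.p6). Exon lengths and overlaps come from GENCODE M21 on the same older build.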

Additional observations from a re-analysis of the deposited data

Results flagged for a closer look

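Of 20 sets of values tested (10 clock genes in each of the place and silent groups), 1 held a library far from the rest, as chance alone gives in about 1 in 20. Clock stood at 181.2 RPM in silent replicate 3, the library with the high Vip level, and at 288.0 or more in the other silent libraries. The gap to the nearest library took 0.899 of the group's range, beyond Dixon's 95% critical value of 0.829 for 4 libraries. Without silent replicate 3 the log2 fold of Clock was 0.19 in place of 0.36.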

How the results depend on the processing

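In 21 alternatives, 0 of the 10 clock genes, 0 of the other clock genes and, in those that apply to pairs, 0 of 45 pairs passed the threshold. The smallest adjusted p of a clock gene was 0.687. Over all genes, 4 passed with voom and 0 to 1 as single libraries were left out, the 1 being the Y-linked Eif2s3y without place replicate 1. Of 210 clock gene folds, 197 kept their sign, and Cry1, Clock, Npas2 and Nr1d2 did so throughout (Nr1d2 down to 0.006). With genes detected as a covariate, the log2 fold was -0.019 for Per1, -0.075 for Cry2, 0.257 for Bhlhe41 and 0.14 for Csnk1e. Without silent replicate 1, silent replicate 4 and place replicate 3, which stood apart in an earlier analysis of these data, it was -0.064 for Per1, -0.054 for Nr1d1, 0.05 for Dbp, -0.052 for Hlf, 0.18 for Bhlhe41 and 0.095 for Csnk1e. With array weights Bhlhe41 was at 0.005. As single libraries were left out, the fold ran from -0.086 to 0.214 for Per1, -0.608 to 0.118 for Per2, -0.066 to 0.174 for Per3, -0.14 to 1.701 for Nr1d1, -0.23 to 0.467 for Bmal1, -0.81 to 0.365 for Bmal2, -0.302 to 0.354 for Hlf, -0.366 to 0.067 for Bhlhe41, -0.238 to 0.649 for Ciart, -0.588 to 0.171 for Csnk1d and -0.386 to 0.013 for Csnk1e. For these sign changes the cause was not tested. The median fold of all genes was 0.19, 0.077 with quantile normalization and -0.043 with that covariate. By counting error alone, depth limits only the lowest levels, as 3 reads equal 0.132 to 0.215 RPM. However, 41.96% of the genes tested had no reads in some library. Nampt, of the other clock genes, had none in silent replicate 3 and 79.7 to 158 RPM elsewhere. Whether transcripts were lost before sequencing was not tested. The count model planned for whole reads was not run. No paired analysis was possible because the labels number no replicates and pair no libraries across the groups.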
